A study of Homo sapiens with 6 samples.

Results

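The RNAs described here are a small group of structural RNAs, of a kind that can be carried along in a precipitate. They are RN7SL1 and RN7SL2, RN7SK, RPPH1, RMRP and the U2 pseudogene copies RNU2-59P and RNU2-70P. A cluster, a stretch of RNA called as cross-linked to the protein, was taken as one of theirs where the deposited annotation named the RNA, as the gene with the nearest start or as the transcript the cluster lies in, and the cluster lay on the strand of that RNA. The rule found 13 clusters among 16269 in all, in 4 of the 7 RNAs and in 5 of the 6 libraries. All 13 lay in the named RNA as far as its ends are known, 1 of them beginning 2 nt before its annotated first base. Presence on these lists is what led to the choice of the 7 RNAs, so presence by library is given below as a description and was not tested.

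The libraries were PAR-CLIP libraries. HEK293T cells, a transformed line of human embryonic kidney origin, were transiently transfected with myc-tagged hnRNP A1, given 4-thiouridine and cross-linked with UV light, and the protein was precipitated with an antibody to the tag. A1dm was the R75D/R88D double salt bridge mutant from its monomeric band, A1-HMW was WT hnRNP A1 from a slower band that the study describes as possibly dimeric, and A1 was WT hnRNP A1 from the monomeric band, with 2 libraries for each of the 3. All of the cells carried the transfected protein beside their own hnRNP A1, and no library was made from untransfected cells or with a control antibody, so a background of carried RNA could not be measured. The lists hold no expression levels against which the cell line could be checked.

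These RNAs belong to well-known particles. The 7SL RNA, encoded by RN7SL1 and RN7SL2, is the scaffold of the signal recognition particle, which brings nascent secretory proteins to the endoplasmic reticulum, and Alu repeats derive from it. RPPH1 is the catalytic RNA of RNase P, which trims the leader from precursor transfer RNAs, and RMRP is the related RNA of RNase MRP, which cuts precursor ribosomal RNA. RN7SK holds the elongation factor P-TEFb in an inactive complex, and hnRNP A1 is known to bind it. U2 is the small nuclear RNA that recognizes the branch point during splicing, and it has many pseudogene copies, of which RNU2-59P and RNU2-70P are examples. In PAR-CLIP a cross-linked 4-thiouridine is read as C, so that a T-to-C change marks the contact.

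The 10 distinct sequences of the 13 clusters are shown in full because their place in the RNA, their base composition and their copies elsewhere carry the results below. They were read from the hg19 genome on the strand of the RNA, 5′ to 3′, and capitals mark T, the base at which a contact can be read. Bases are counted from the first base of each RNA, and bases before it have a minus sign.
RPPH1 bases -2 to 18, chr14:20811549-20811568, minus strand: agggcggagggaagcTcaTc
RPPH1 bases 19 to 40, chr14:20811527-20811548, minus strand: agTggggccacgagcTgagTgc
RPPH1 bases 58 to 83, chr14:20811484-20811509, minus strand: ccaTgTcccTTgggaaggTcTgagac
RPPH1 bases 157 to 176, chr14:20811391-20811410, minus strand: cgcgaggTcagacTgggcag
RPPH1 bases 167 to 186, chr14:20811381-20811400, minus strand: gacTgggcaggagaTgccgT
RPPH1 bases 270 to 289, chr14:20811278-20811297, minus strand: aaTggcTgaggTgaggTacc
RN7SL2 bases 273 to 294, chr14:50329274-50329295, minus strand: TgagcaacaTagcgagaccccg
RNU2-59P bases 168 to 187, chr10:103124606-103124625, minus strand: accTccaggaacggTgcacT
RNU2-70P bases 158 to 175, chr1:236431237-236431254, plus strand: cTTcaggaacggTgcacc
RNU2-70P bases 159 to 175, chr1:236431238-236431254, plus strand: TTcaggaacggTgcacc

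RPPH1, the RNase P RNA, had 6 clusters, more than any other RNA of the group. A1dm held 1 and 4 of them in its 2 libraries, A1-HMW held 0 and 0, and A1 held 0 and 1. RN7SL2 had 1 cluster, in A1dm replicate 2. RNU2-59P had 3 clusters, 1 each in A1dm replicate 1, A1-HMW replicate 1 and A1 replicate 1. It was thus in 3 of 3 libraries numbered replicate 1 and in 0 of 3 numbered replicate 2, and the study describes the replicates as separate experiments. RNU2-70P had 3 clusters as well, 1 in each A1dm library and 1 in A1 replicate 1. The other 3 RNAs, RN7SL1, RN7SK and RMRP, had 0 clusters in every library. RPPH1 had 1 of its clusters in the replicate 1 libraries and 5 in the replicate 2 libraries. In all, 9 clusters came from A1dm, 1 from A1-HMW and 3 from A1, as the bars by library show.

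**Figure D1:**
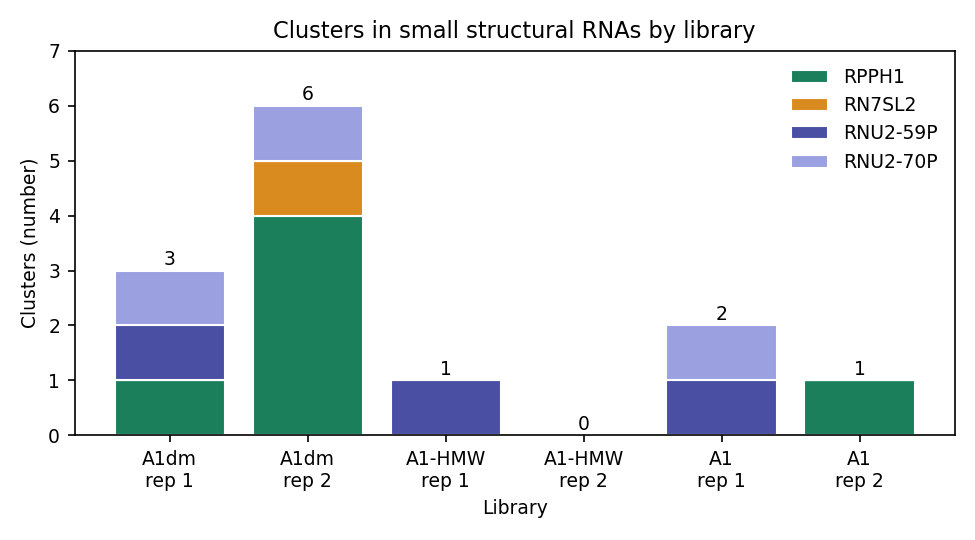
Number of clusters in the small structural RNAs (y axis) in each of the 6 libraries (x axis), with 1 colour per RNA and the total above each bar. The A1dm libraries held 3 and 6 clusters, the A1-HMW libraries 1 and 0, and the A1 libraries 2 and 1, and RPPH1 made up 4 of the 6 in A1dm replicate 2.

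The libraries differed widely in size: the A1dm lists held 232 and 596 clusters, the A1-HMW lists 671 and 865, and the A1 lists 5805 and 8100. No line of the lists gives a number of reads, so the depth is unknown, and 0 clusters in an RNA do not show that it was unbound. As a share of the clusters of a library, the group made up 1.29% (95% Wilson interval 0.441% to 3.73%) in A1dm replicate 1 and 1.01% (0.462% to 2.18%) in A1dm replicate 2. In A1-HMW it made up 0.149% (0.0263% to 0.839%) in replicate 1, and 0 of 865 clusters in replicate 2, which allows a share of up to 0.347%. In A1 it made up 0.0345% (0.00945% to 0.126%) in replicate 1 and 0.0123% (0.00218% to 0.0699%) in replicate 2. Both A1dm shares lay above all 4 of the WT shares. The intervals cover counting error only and are no test between libraries.

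The mean share was 1.15% ± 0.203 for A1dm, 0.0745% ± 0.105 for A1-HMW and 0.0234% ± 0.0156 for A1 (SD, n = 2 libraries each). A1dm minus A1 came to 1.13 percentage points, and to 0.582 points without RPPH1 and 0.629 points without the U2 copies. A1-HMW minus A1 came to 0.0511 points, which is within the spread of the A1-HMW libraries. It rests on 1 cluster, and without A1-HMW replicate 1 it was -0.0234 points. These shares are descriptions, since the RNAs were chosen on the same lists. The smallest p of an exact permutation test, two-sided, would have been 0.333 with 2 libraries on each side.

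**Figure D2:**
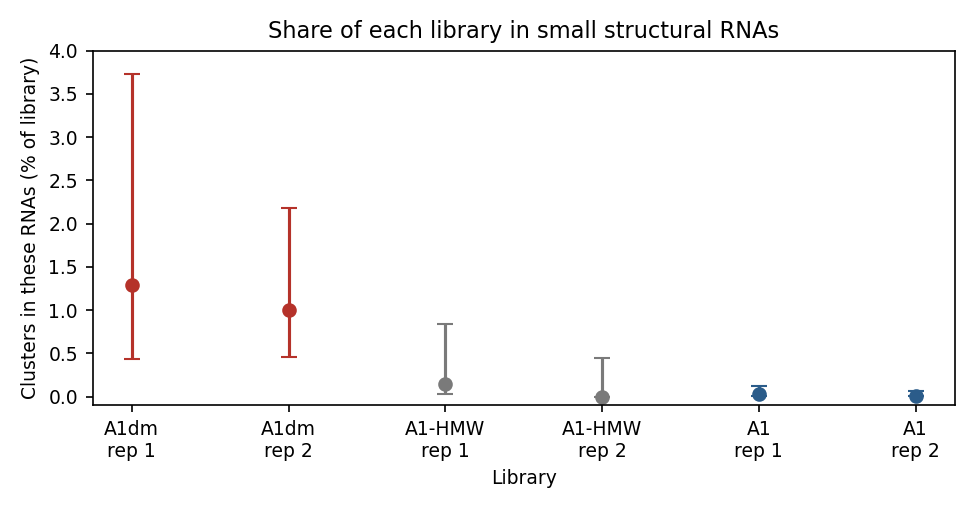
Share of the clusters of each library that lay in the small structural RNAs (y axis, percent) by library (x axis), with 95% Wilson intervals as bars, coloured by protein band. The A1dm libraries lay at 1.29% and 1.01%, and the 4 WT libraries lay at 0.149% or below.

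The 13 clusters formed 8 regions, a region being a set of clusters that overlap on 1 strand in any library. Of the 8, 5 were found in A1dm and in neither A1 library, against 3.63% of the 11416 regions of the whole series. These were the RN7SL2 region and 4 of the 5 RPPH1 regions. The 11416 regions include those of the far longer A1 lists. Among regions of the whole series found in A1dm, 414 were in neither A1 library and 380 were in an A1 library too. For the member regions these counts were 5 and 2. The share of all regions found in both A1dm libraries was 0.298%, and 2 of the 8 were among them, the RNU2-70P region and the RPPH1 region at bases 157 to 186. That RPPH1 region was also the single one found in both A1dm libraries and in neither A1 library, a pattern shared by 0.0788% of all regions. The RNU2-59P region was the single one found in an A1dm, an A1-HMW and an A1 library, against 1.32% of all regions. Of the 8 regions, 0 were found in A1-HMW and in neither A1 library, against 3.9% of all regions, and 2, the U2 copies, were found in both A1dm and A1, against 3.33%. The rule used presence on these lists, so nothing is read from the counts.

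RPPH1 showed the widest spread of clusters along its length. Its first base was put at position 20811566 of chromosome 14 on the minus strand, the start of ENST00000516869 that the deposited distances of all 6 clusters give alike. In A1dm replicate 2, the 4 clusters lay at bases 19 to 40, 58 to 83, 157 to 176 and 270 to 289. In A1dm replicate 1, the cluster lay at bases 167 to 186 and shared 10 nt with the third of these. In A1 replicate 2, the cluster lay at bases -2 to 18 and ended where the first A1dm cluster began, with no base in common. The A1dm and A1 clusters of RPPH1 therefore did not overlap, with only 1 cluster on the A1 side. In the whole series, 414 regions with an A1dm cluster had no A1 cluster, and 380 had an A1 cluster. The 6 RPPH1 clusters covered 118 nt between bases -2 and 289. The 3′ end of RPPH1 is not given in the sources used here, so the distance to it was not measured.

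In the deposited annotation column, all 6 RPPH1 clusters are labelled as the promoter of PARP2, the gene of a DNA repair enzyme whose start lies nearby on the opposite strand at position 20811774. The clusters lay on the strand of RPPH1, and PARP2 itself had 0 clusters on its own strand. In the GENCODE annotation lifted to hg19, the place is an exon of the long noncoding RNA ENSG00000259001 (chr14:20811207-20811844, minus strand), which had 6 clusters in all, the same 6. Reads of that longer RNA and of RPPH1 cannot be told apart here.

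The clusters of the other 3 RNAs all lay near the 3′ end. RN7SL2 is 297 nt long (ENST00000490232, chr14:50329271-50329567, minus strand), and its cluster stopped 3 nt before the last base. RNU2-59P is 191 nt long (ENST00000410482, chr10:103124602-103124792, minus strand), and its cluster stopped 4 nt before the last base at the same coordinates in A1dm replicate 1, A1-HMW replicate 1 and A1 replicate 1. RNU2-70P is 179 nt long (ENST00000410718, chr1:236431080-236431258, plus strand). Its cluster also stopped 4 nt before the last base, and it began at base 159 in A1dm replicate 1, at base 158 in A1dm replicate 2 and at base 159 in A1 replicate 1. So 7 of 7 clusters in an RNA with an annotated end stopped 3 or 4 nt before it. They formed 1 region in each of the 3 RNAs, and each U2 region was called in 3 libraries, so they are not separate cases. A1-HMW held 1 of them, and the RN7SL2 cluster was in A1dm alone.

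**Figure D3:**
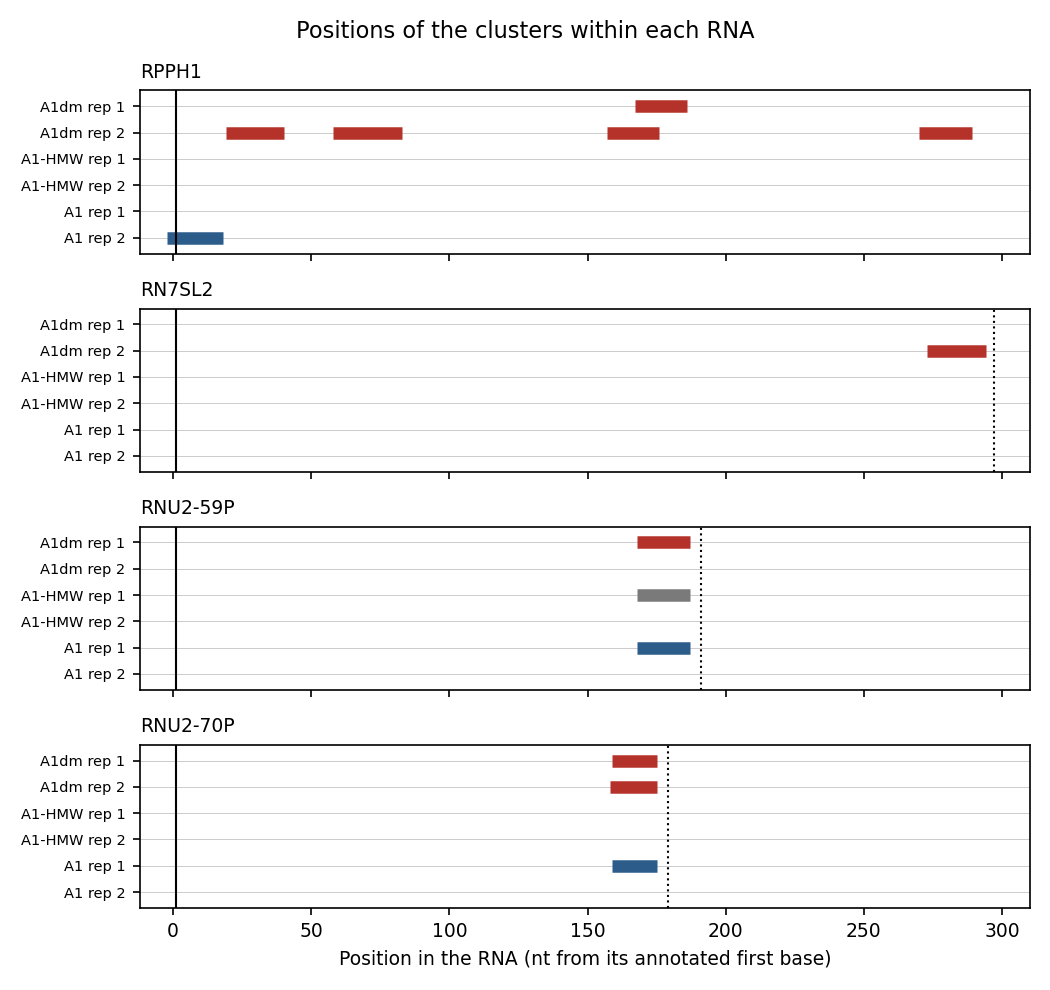
Position of each cluster (bars) along RPPH1, RN7SL2, RNU2-59P and RNU2-70P, in nucleotides from the annotated first base (x axis), with 1 row per library and colour by protein band. The solid line marks the first base and the dotted line the annotated last base, which is not drawn for RPPH1. The clusters of RN7SL2 and of the U2 copies stop 3 or 4 nt before the last base, and those of RPPH1 are spread between bases -2 and 289.

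RNU2-59P lies inside the gene BTRC and RNU2-70P inside the gene ERO1B, and both U2 copies run opposite to the gene around them. On the strand of BTRC, which encodes an F-box protein of a ubiquitin ligase, there were 4 clusters, all in A1 replicate 2, which had 0 clusters in RNU2-59P. On the strand of ERO1B, an oxidase of the endoplasmic reticulum, there were 0. RN7SL2 lies inside the long noncoding RNA ENSG00000282885 on the same strand, and that RNA had no cluster apart from the one in RN7SL2.

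Of the RNAs with 0 clusters, RN7SK spans 331 nt (chr6:52860418-52860748, plus strand), and the nearest cluster of any library and either strand was 158420 nt away. RMRP spans 264 nt (chr9:35657751-35658014, minus strand), and its nearest cluster was 23058 nt away. RN7SL1 was named in 0 lines of the deposited lists and has 0 entries in the annotation used. In RefSeq (GRCh38) it lies within RPS29, between RPL32P29 and LRR1, and in hg19 a full-length copy of RN7SL2 with no name lies within RPS29 between the same neighbours (chr14:50053298-50053594, plus strand), so this copy is taken as the place of RN7SL1. It had 0 clusters. RPPH1 and RMRP, the RNAs of a pair of related enzymes, thus had 6 clusters and 0 clusters.

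The sequences had a base composition unlike that of the other clusters, which the rule had not used. In A1dm the member clusters averaged 56.0% and 58.8% purine (A and G) in replicates 1 and 2, against 80.8% and 77.8% in the other clusters of the same libraries. In A1-HMW replicate 1 the 1 member cluster had 50% purine, against 87.1% in the other clusters. In A1 the values were 51.5% and 70% in replicates 1 and 2, against 90.7% and 90.6%. The members were lower in 5 of 5 libraries, and the mean difference was -28.1 percentage points (SD 9.42, n = 5 libraries, exact two-sided sign-flip permutation test p = 0.0625, the smallest p that 5 libraries allow). The threshold of 0.05 could therefore not have been passed. The libraries are not independent in this respect, since the same RNU2-59P cluster is in 3 of the 5 and an RNU2-70P cluster in 3. The other clusters of the A1dm libraries also had less purine than those of the WT libraries, at 80.8% and 77.8% in A1dm, 87.1% and 87.7% in A1-HMW and 90.7% and 90.6% in A1.

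**Figure D4:**
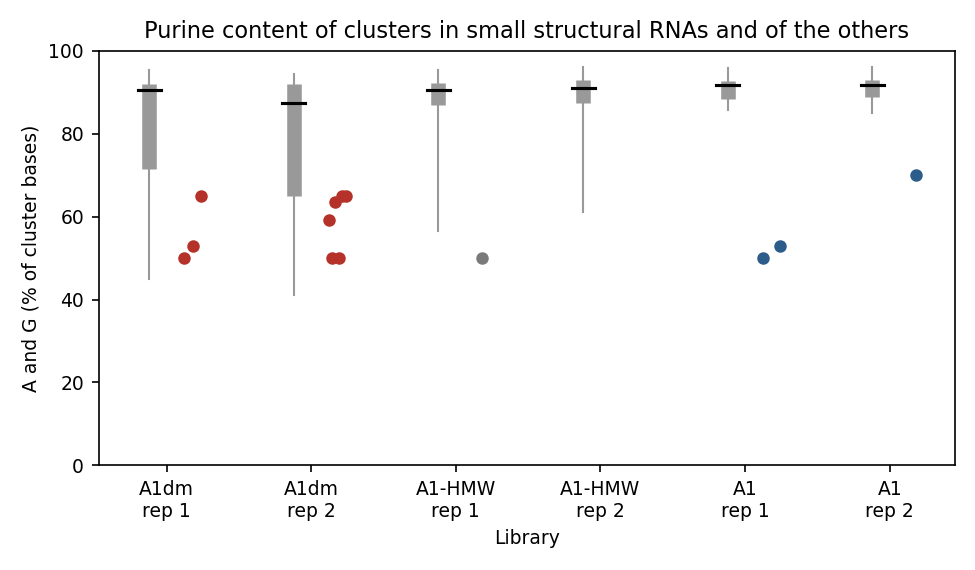
Share of A and G among the bases of each cluster (y axis, percent) by library (x axis). Coloured points are the clusters in the small structural RNAs, and for all other clusters of the library the black line marks the median, the thick grey bar the middle 50% and the thin grey line the range between the 5th and the 95th percentile. The points lie between 50% and 70%, and the medians of the other clusters lie between 87.5% and 91.7%.

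Counted once each, the 10 sequences had a median of 61.4% purine (range 50% to 70%), against 91.3% for 14116 other distinct cluster sequences, of which 3.07% were at 70% purine or below. Their median GC content was 60.6%, against 48.3%. Their median length was 20 nt (17 to 26), against 24 nt (12 to 63), and they held a median of 3 T, against 2. A run of 12 purines, present in 93.8% of the other sequences, was present in 0 of the 10, and the longest run, of 9 purines, was in RPPH1 at bases -2 to 18, the cluster of A1 replicate 2. In A1dm, which held 9 of the 13 member clusters, the other clusters were less unlike the members. Their lower quartile was 71.4% purine in replicate 1 and 65% in replicate 2, and 67.6% and 58.6% of them held such a run. The letters AGG, part of the motif hnRNP A1 is known for and searched on the RNA strand alone, were present in 8 of the 10 and in 97.2% of the others. TAG, searched in the same way, was present in 1 of the 10, the RN7SL2 sequence, and in 9.55% of the others. A match is given as letters only.

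How surely a cluster belongs to the named copy differed between the RNAs. Each sequence was searched on both strands of the hg19 primary assembly. The 6 RPPH1 sequences had 0 other exact places, and 1 of them, at bases 167 to 186, had 1 place with a single difference, G19T, counted from the 5′ end of the cluster. Over the 289 nt of RPPH1 that the clusters reach, 0 other places were at least 90% identical over at least 90% of the length. Among all 10 sequences, 1 had an exact copy elsewhere, against 1.95% of the other cluster sequences, and 5 had a place with at most 1 mismatch.

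The 1 sequence with exact copies was that of RN7SL2. It was found at 13 other places on 9 chromosomes, none in an RN7SL gene of the annotation, and at 269 more with 1 mismatch. The full-length copies of the RNA differed from it in the cluster, by A3G in the copy at the place of RN7SL1, which is 98.7% identical over the whole RNA, and by A3G, C13T and C21T in RN7SL3, which is 96.9% identical. Both are shown because they are the full-length copies of RN7SL2, although the 13 other places match the cluster itself exactly.
RN7SL2, chr14:50329274-50329295, minus strand: TgagcaacaTagcgagaccccg
copy at the place of RN7SL1, chr14:50053570-50053591, plus strand: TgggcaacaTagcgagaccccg
RN7SL3, chr14:50320339-50320360, minus strand: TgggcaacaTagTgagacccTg
The letters shown are those of the genome at each place and not of reads, so which copy the reads of A1dm replicate 2 came from cannot be told from them. The study describes its peaks as built from reads with a unique place in the genome, and whether these lists were made so is not given in the sources used here. The full-length copies had 0 clusters.

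RNU2-59P and RNU2-70P share a run of 14 nt, at bases 173 to 186 of RNU2-59P and 161 to 174 of RNU2-70P, and the 18 nt cluster of RNU2-70P differs from RNU2-59P by T3C and C18T.
shared run, within chr10:103124606-103124625, minus strand, and chr1:236431237-236431254, plus strand: caggaacggTgcac
The sequence of RNU2-59P had 0 other exact places and 1 with a single difference, C3T in RNU2-2P.
RNU2-59P, chr10:103124606-103124625, minus strand: accTccaggaacggTgcacT
RNU2-2P, chr11:62609095-62609114, minus strand: acTTccaggaacggTgcacT
RNU2-59P had 8 other copies at 90% identity or more over the whole RNA, the closest at 93.6%, and RNU2-70P had 0. In none of these copies was there a cluster in any library.

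The annotation holds 70 U2 genes, and at some T of the clusters the other U2 copies have C, which is the same letter change that PAR-CLIP reads as a contact. The plain U2 gene is not named in this annotation, so it was not among the named copies compared. Whether reads of U2 itself underlie these clusters was not tested. At base 20 of the RNU2-59P cluster, 17 of the 22 other copies within 3 mismatches had C (T20C), whereas 0 of the 22 had C at its T of base 4 or 15. At base 2 of the 17 nt RNU2-70P cluster, found in A1dm replicate 1 and A1 replicate 1, 22 of 22 such copies had C (T2C), against 1 with T1C and 0 with T12C. In the 18 nt form of A1dm replicate 2, the same base was T3C in 21 of 21 copies, and T2C and T13C were found in 0. So each U2 cluster held a T at which most of its near copies have C, and also held T at which none has. The lists give no substitutions by position, so whether the calls rest on such a base was not tested. The reverse holds at base 3 of the RNU2-59P cluster, where RNU2-2P has T as its only difference (C3T). A read of RNU2-2P with that T read as C would match RNU2-59P exactly. Whether such reads underlie the RNU2-59P cluster was not tested. Over the whole genome, an exact copy apart from 1 T-to-C change was found for 1 of the 10 sequences, the 17 nt RNU2-70P cluster, and for 2.71% of the other cluster sequences. This count took T in the cluster and C in the copy. Copies with T at a C of the cluster, as in RNU2-2P, were not part of it.

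Other small structural RNAs were looked at through a list of 5343 genes of spliceosomal, 7SL, 7SK, Y, vault, small nucleolar and Cajal body RNAs and their pseudogenes, without the 7 RNAs above. The gene with the nearest start was no guide to them: 943 clusters named a list gene in that column, and 11 of these shared at least 1 nt with a list RNA on its strand. For the 7 RNAs above, 13 of 13 clusters that named one lay in it as far as its ends are known. Those RNAs were chosen on these lists, so the 2 counts are not a like comparison. By position, 12 of the 5343 genes had a cluster, each 1 cluster in 1 library, and 9 of these clusters lay wholly inside the RNA. A1dm held 1 and 6 of the 12, A1-HMW 1 and 1, and A1 3 and 0. That was 0.431% and 1.01% of the clusters in A1dm, 0.149% and 0.116% in A1-HMW and 0.0517% and 0% in A1. Both A1dm shares lay above the WT shares, but that of A1dm replicate 1 rests on 1 cluster. The gene list was chosen with earlier results of these data known, so the shares are descriptions. An exact permutation test of 2 libraries against 2 could give no p below 0.333.

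In A1dm these included RNU5B-1, a U5 small nuclear RNA, at base 82 of 116, RNU1-67P at base 123 of 164, RNU1-109P at base 126 of 147 and RN7SL272P at base 62 of 287. RNU1-67P was in replicate 1 and the other 3 were in replicate 2. In A1 the clusters named RN7SKP70 and RN7SL425P shared only 8 and 4 nt with the RNA, beginning 12 and 21 nt before it. Those 2 clusters had 85.7% and 88.5% purine, and the other 10 of the 12 had 63.6% or less, the lowest being the 27.3% of RNU1-109P. The 10 include the remaining A1 cluster, in a small nucleolar RNA, which shared 26 nt with that RNA and had 40.7% purine.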

How the data were processed

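PAR-CLIP was run on 6 libraries, 2 for each of A1dm, A1-HMW and A1, grouped by the labels. Per the study's methods the authors trimmed adapters, removed ribosomal RNA and mapped with STAR, while the submitters' processing notes name Bowtie and hg19. The deposited lists are, per the file headers, wavClusteR clusters of single libraries that the authors annotated with HOMER and an Ensembl gene set on hg19. Versions are not given in the sources used here. The score that the authors deposited is 0 throughout, and the lists hold neither reads nor T-to-C numbers on which to run a count test. The study's supplement holds another list, from another caller, with read and T-to-C numbers, which was not used here. The other deposited values used were coordinates and distances to the nearest start.

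The listed start lay 1 nt above the start in the cluster identifier in 100% of lines, and the start of the identifier was used. With it 100% of the clusters outside the mitochondrial genome held a T. The 7 RNAs and the gene list were chosen with earlier results of these data known, and the genes named were the 7 RNAs, the genes around them and the first 6 other RNAs by number of libraries, clusters and name. Sequences came from the GRCh37 (hg19) primary assembly and genes from GENCODE 44 lifted to it, in which 5 of the 7 RNAs are named. RN7SL1 was placed by its neighbours in RefSeq. The start of RPPH1 was taken from the deposited distances, and starts found in this way matched the annotation for RN7SL2, RNU2-59P and RNU2-70P. Transfer RNAs, planned as part of the gene list, have no genes in this annotation and were not analysed here. Regions joined clusters that overlap by at least 1 nt on the same strand. Copies were sought by exact matching on both strands, tested on simulated data, and by BLAST 2.17.0 (at least 90% identity over 90% of the length). U2 copies were compared without gaps at up to 3 mismatches. Shares have 95% Wilson intervals, and a count of 0 was given the limit of 3 counts. Python 3.11.15, pandas 2.3.3, numpy 2.4.6 and scipy 1.17.1 were used. Alternatives were the strand, the place relative to the RNA, mitochondrial clusters, overlapping places counted once, the start, the last base, the background clusters, the mismatches and each library left out. Leaving out RPPH1 or the U2 copies, and differences within replicate numbers, were added after seeing the data. The study describes the replicates as independent experiments.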

Additional observations from a re-analysis of the deposited data

How the results depend on the processing

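The difference in share between A1dm and A1, 1.13 points, stayed above 0 under every alternative run. It remains a description under all of them, since the RNAs were chosen on the same lists. It was 0.921 points with overlapping places of 1 RNA family counted once per library, 0.582 points without RPPH1 and 0.629 points without the U2 copies, and 0.983 to 1.27 points as single libraries were left out. The difference between A1-HMW and A1, 0.0511 points, was -0.00617 points without the U2 copies and -0.0234 to 0.126 points as single libraries were left out, since it rests on the 1 cluster of A1-HMW replicate 1. Counting either strand or clusters outside the RNA changed neither value, as all 13 clusters were on the strand of the RNA and in it as far as its ends are known. The purine difference kept its direction under every alternative run, from -25.4 to -30.4 points as single libraries were left out and -26.8 points with the start as listed. The number of sequences with a copy elsewhere was 1 with no mismatch and 5 with 1 mismatch allowed.

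With the replicate number as a block (added after seeing the data), A1dm minus A1 was 1.26 points in replicate 1 and 0.994 points in replicate 2, and A1-HMW minus A1 was 0.115 and -0.0123 points. Their means over the block, 1.13 and 0.0511 points, are those without it, and 2 pairs cannot give a sign-flip p below 0.5. Depth is unknown, so an RNA with 0 clusters cannot be called unbound. The 13 clusters are few, and the list of A1dm replicate 1, with 232 clusters, is the shortest, so 1 cluster moves its share most.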
